A study of Mus musculus with 6 samples.

Results

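The miR-181 family is a group of closely related microRNAs made from 3 places in the mouse genome. Its members were taken by name from the table of known miRNAs: 8 mature arms of 1978 rows, of which 4 are guide arms (mmu-miR-181a-5p, mmu-miR-181b-5p, mmu-miR-181c-5p and mmu-miR-181d-5p) and 4 are passenger arms (mmu-miR-181a-1-3p, mmu-miR-181a-2-3p, mmu-miR-181b-1-3p and mmu-miR-181c-3p). The prefix for mouse is left out below. Another 2 miR-181 rows, miR-181b-2-3p and miR-181d-3p, complete the set of arms and are given beside them. Small RNA was sequenced from heart cells of wild-type male C57BL/6 mice, 4 to 6 weeks old, that had been captured with magnetic beads against c-kit, a receptor tyrosine kinase used to select cardiac progenitor cells. The control group (3 libraries) is labelled 0 hours and the hypoxia group (3 libraries) 12 hours. Hypoxia is named in the treatment field of every library, controls included, so the groups rest on the titles and times. The oxygen level, the number of mice behind a library and whether the libraries came from separate cultures are stated in none of the sources used here, so p-values measure only the spread between these libraries. If the controls were not cultured for the same time, culture time cannot be told apart from hypoxia. The labels speak of RNA from exosomes and the design text of RNA from cells, and this was not settled. Columns carry a digit, read as 0 hours or as the only other time, and a letter, A, B or C, and libraries are named here by group and letter.

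A miRNA gene is transcribed as a hairpin, from which Drosha and Dicer cut a short duplex. One strand, the guide, is loaded into Argonaute and pairs with target messages mainly through its seed, bases 2 to 8, while the other strand, the passenger, is mostly degraded. The guides miR-181a and miR-181b are each made from hairpins at different loci and carry no trace of which one. Their passenger arms differ between loci, so the sequence of a passenger read gives its locus of origin. The number of such reads also depends on how much of the passenger is degraded, which was not measured. Shares of passenger reads below are therefore not shares of locus output. In background knowledge, miR-181a tunes T cell receptor signalling in thymocytes, miR-181b restrains NF-kappaB signalling in vascular endothelium, and miR-181c has been described in the mitochondria of heart muscle cells.

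The guide sequences are shown because the seed, in capitals, is the same in all 4 and the rest sets them apart. The sequences are those of RefSeq on GRCm38.p6, written 5′ to 3′, and all 8 members were matched by name.
miR-181a-5p: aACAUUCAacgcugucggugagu
miR-181b-5p: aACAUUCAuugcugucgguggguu
miR-181c-5p: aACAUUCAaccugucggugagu
miR-181d-5p: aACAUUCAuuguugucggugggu
Of 1679 mature mouse miRNAs in that table, 4 carry the seed ACAUUCA, and 0 of them lie outside the family. By edit distance, miR-181a-5p and miR-181c-5p are 1 base apart, miR-181b-5p and miR-181d-5p are 2 apart, and miR-181a-5p and miR-181b-5p are 4 apart. How the authors assigned reads that fit several arms is stated in none of the sources used here. The separate values of arms this close are uncertain to that extent. No pair of miR-181 arms had values within 1% of each other in every library. Elsewhere in the known table, miR-199a-3p and miR-199b-3p had the same mean level (3238 CPM), as did let-7a-1-3p and let-7c-2-3p (445 CPM). Some reads therefore appear to be counted under more than 1 name.

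The passenger arms are shown because they tell the loci apart, again with bases 2 to 8 in capitals.
miR-181a-1-3p: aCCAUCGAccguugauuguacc
miR-181a-2-3p: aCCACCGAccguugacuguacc
miR-181b-1-3p: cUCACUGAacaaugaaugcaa
miR-181b-2-3p: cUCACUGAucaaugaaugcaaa
miR-181c-3p: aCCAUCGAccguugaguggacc
Counting from 1 at the 5′ end, miR-181a-2-3p differs from miR-181a-1-3p by U5C and U16C, the former inside the seed. miR-181c-3p differs from miR-181a-1-3p by U16G and U19G and so keeps its seed. miR-181b-2-3p differs from miR-181b-1-3p by A9U and by its length.

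The hairpins of miR-181a are shown with their mature arms in capitals, the guide first.
Mir181a-1: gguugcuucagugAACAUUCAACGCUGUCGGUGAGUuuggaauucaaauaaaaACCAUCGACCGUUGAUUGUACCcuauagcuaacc
Mir181a-2: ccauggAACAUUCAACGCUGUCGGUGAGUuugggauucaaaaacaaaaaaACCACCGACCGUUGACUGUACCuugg
On GRCm38, Mir181a-1 (137966455 to 137966541) and Mir181b-1 (137966639 to 137966718) lie on the plus strand of chromosome 1 with 97 bases between them, in an intron of the noncoding gene Gm4258, and each overlaps an exon of the lincRNA A430106G13Rik on the same strand. Mir181a-2 (38852735 to 38852810) and Mir181b-2 (38853830 to 38853918) lie on the plus strand of chromosome 2 with 1019 bases between them, within an intron of Nr6a1, a nuclear receptor gene transcribed from the other strand. Mir181c (84178873 to 84178961) and Mir181d (84178716 to 84178787) lie on the minus strand of chromosome 8 with 85 bases between them, in an intron of the GENCODE M21 model of Nanos3, a germ cell gene on that strand. None of the hairpins overlaps annotated coding sequence.

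Each library held between 12285970 and 16975987 counts over the known miRNAs. Levels below are CPM after TMM scaling, which sets library sizes on a common footing. As a look at cell type markers in the libraries, the 2 endothelial arms of miR-126a summed to between 200661 and 249641 CPM over all libraries. Most of that was miR-126a-3p, from 190220 to 242519 CPM. The 5 fibroblast and smooth muscle markers summed to between 26072 and 57420 CPM, most of it miR-143-3p, from 21691 to 49630 CPM. The sums were between 77.2 and 176 CPM for 6 cardiomyocyte markers and between 42.6 and 56.8 CPM for 7 blood cell markers. None of the fixed markers defines cardiac progenitors, so the label itself could not be checked. Fewer cells of a type and less RNA per cell cannot be told apart in such libraries. If the RNA came from exosomes, these sums would not directly give the make-up of the cells.

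The guide arms made up a small part of the libraries. In the controls they held 0.280% (A), 0.210% (B) and 0.276% (C) of known miRNA counts. In hypoxia they held 0.300% (A), 0.258% (B) and 0.280% (C). The means were 0.255% ± 0.0393 in control against 0.279% ± 0.0207 in hypoxia (SD, n = 3 each), and the difference of 0.0239 percentage points did not exceed the spread between libraries (p = 0.5 by a two-sided exact permutation test, which cannot go below 0.1). It was positive in each same-lettered pair, at 0.0201 for A, 0.0484 for B and 0.00323 for C (p = 0.25 by an exact sign-flip permutation test, its smallest value). It was 0.00126 without control B, 0.0136 without hypoxia A and 0.0362 without control A. The widest exact 95% interval on a library's share ran from 0.277% to 0.283% (control A), so counting error was small beside the spread between libraries, and these intervals cover counting error only.

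Over all 6 libraries the levels of the arms could be ordered in part. The 54th most abundant known miRNA was miR-181a-5p, from 1366 to 1587 CPM, followed in the family by miR-181b-5p from 568 to 739 CPM and miR-181d-5p from 346 to 430 CPM, with no overlap between these 3 ranges. Next came miR-181c-5p (63.2 to 113 CPM), miR-181a-1-3p (64.4 to 114 CPM) and miR-181a-2-3p (51.6 to 91.6 CPM), whose ranges overlapped, so their order is not settled. The lowest were miR-181c-3p (18.4 to 26.6 CPM) and miR-181b-1-3p (1.38 to 6.01 CPM). Arms are 21 to 24 bases long, so reads per arm were compared without a length correction.

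**Figure D1:**
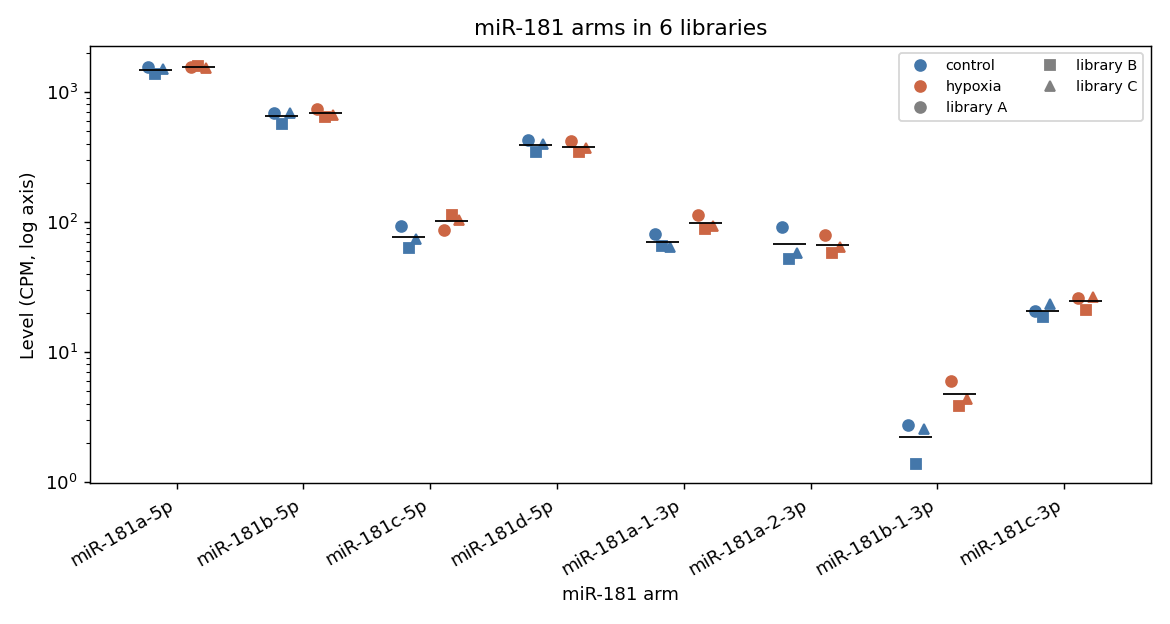
Level of each miR-181 arm in CPM (log axis) by library, with control in blue, hypoxia in orange, marker shapes for the library letter and black lines for group means (n = 3). The groups overlap for every arm except miR-181a-1-3p and miR-181b-1-3p, whose hypoxia libraries all lie above the control libraries.

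All 8 members were among the 619 known miRNAs that passed the expression filter. None was called between hypoxia and control by edgeR's quasi-likelihood test at an adjusted p under 0.05, and 0 of the 619 were called (0%). At an unadjusted p under 0.05 in edgeR there were 2 members, miR-181a-1-3p and miR-181b-1-3p, against 42 of all tested miRNAs (6.79%), of which 25 were higher in hypoxia (4.04%). The same 2 members reached that p in DESeq2 (51 of all tested, 8.24%) and in limma-voom (43, 6.95%), and neither tool called a member after adjustment (2 of all tested called by DESeq2, 0.323%, and 0 by limma-voom). The median log2 fold change was 0.08 over the 4 guides and 0.36 over the 4 listed passengers, beside 0.01 over all tested miRNAs. The unlisted passenger miR-181b-2-3p was also tested, at -0.25 (SE 0.56), and is not in that median.

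The most abundant guide, miR-181a-5p, stood at 1566, 1366 and 1510 CPM in control A, B and C and at 1563, 1587 and 1533 CPM in hypoxia A, B and C. The groups overlapped, with control B the lowest library. Its log2 fold change was 0.08 (SE 0.14, edgeR adjusted p = 0.99).

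miR-181b-5p, the guide linked to endothelial NF-kappaB signalling, stood at 694, 568 and 683 CPM in control A, B and C. The hypoxia libraries A, B and C stood at 739, 644 and 666 CPM. The groups overlapped, again with control B the lowest. Its log2 fold change was 0.08 (SE 0.17, edgeR adjusted p = 0.99). The ratio of miR-181a-5p to miR-181b-5p was 2.29 in each group mean (SD 0.103 in control and 0.175 in hypoxia, n = 3 each).

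From the chromosome 8 pair, miR-181d-5p stood at 430, 347 and 401 CPM in control A, B and C. The hypoxia libraries A, B and C stood at 423, 346 and 370 CPM. These groups overlapped almost wholly, and the log2 fold change was -0.05 (SE 0.18, edgeR adjusted p = 0.99). It changed to 0.01 with scaling to library size only, which moved the median over all tested miRNAs from 0.01 to 0.08. Its neighbour miR-181c-5p stood at 93.0, 63.2 and 74.4 CPM in control A, B and C. The hypoxia libraries A, B and C stood at 87.4, 113 and 103 CPM. Hypoxia B and C were above every control library and hypoxia A was not. The log2 fold change of miR-181c-5p was 0.40 (SE 0.22, edgeR adjusted p = 0.79), with -0.09 in pair A, 0.85 in pair B and 0.47 in pair C.

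The ratio between these neighbours was lower in hypoxia B and C than in every other library. miR-181d-5p gave 4.62, 5.49 and 5.39 reads per miR-181c-5p read in control A, B and C. The values were 4.83, 3.05 and 3.60 for the hypoxia libraries. The means were 5.17 ± 0.476 and 3.83 ± 0.915 (SD, n = 3 each), with hypoxia A inside the control range, and the log2 ratio differed by -0.46 (p = 0.2 by the two-sided exact permutation test). This ratio was added after the values were seen.

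The make-up of the guide pool was otherwise even. miR-181a-5p held 57.1% ± 1.08 of miR-181 guide reads in the controls against 57.3% ± 1.71 under hypoxia (SD, n = 3 each). That is 0.266 percentage points more (two-sided exact permutation p = 0.9). miR-181b-5p held 24.9% ± 0.693 and 25.1% ± 1.18, miR-181d-5p 15.1% ± 0.327 and 13.9% ± 1.09, and miR-181c-5p 2.94% ± 0.350 and 3.72% ± 0.564 (SD, n = 3 each).

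**Figure D2:**
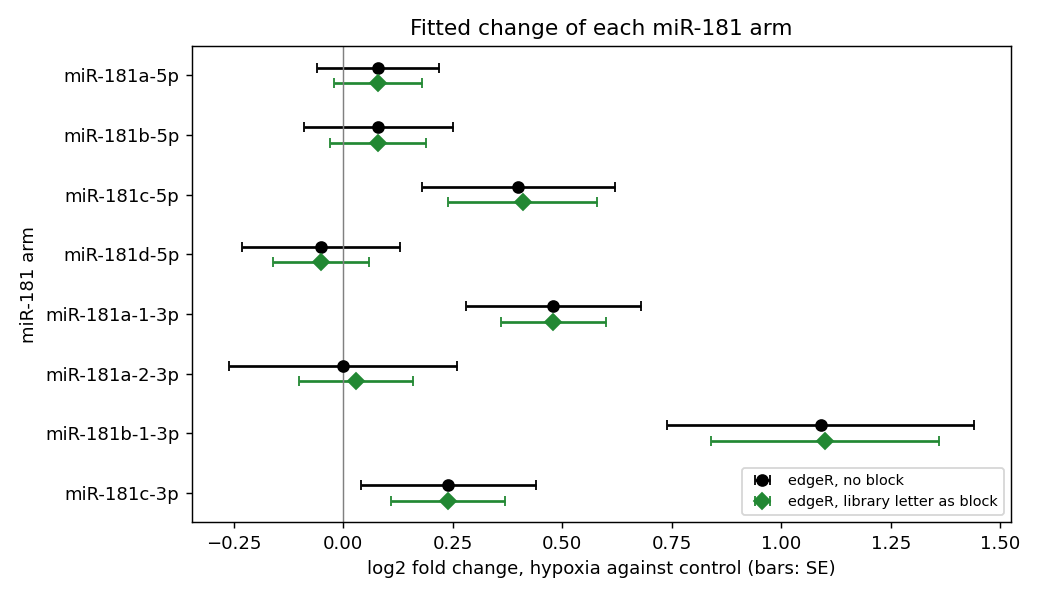
Fitted log2 fold change of each arm, hypoxia against control, with its standard error as bars, from edgeR without a block (black circles) and with the library letter as a block (green diamonds). miR-181b-1-3p at 1.09 and miR-181a-1-3p at 0.48 lie farthest to the right, and miR-181a-2-3p lies at 0.00.

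Among the passenger arms, those of the chromosome 1 locus lay above the controls in every hypoxia library, although neither passed the adjusted test, and the listed one of the chromosome 2 locus had overlapping groups. The passenger of Mir181a-1, miR-181a-1-3p, stood at 80.5, 65.6 and 64.4 CPM in control A, B and C, from 994, 854 and 1011 reads. In hypoxia A, B and C it stood at 114, 87.8 and 92.7 CPM, from 1889, 1432 and 1278 reads. Every hypoxia library lay above every control library. The group means were 70.2 ± 8.96 and 98.0 ± 13.7 CPM (SD, n = 3 each), a 1.40-fold difference, or 0.48 on the log2 scale (SE 0.20, edgeR adjusted p = 0.72). The log2 differences were similar in pair A (0.50), pair B (0.42) and pair C (0.53).

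The passenger of Mir181b-1, which lies 97 bases downstream of Mir181a-1, is the rarest listed arm. miR-181b-1-3p had 34, 18 and 40 reads in control A, B and C (2.75, 1.38 and 2.55 CPM) and 100, 63 and 60 reads in hypoxia (6.01, 3.86 and 4.35 CPM). The groups did not overlap here either. The log2 fold change was 1.09 (SE 0.35, edgeR adjusted p = 0.65), a 2.12-fold difference, with 1.13, 1.48 and 0.77 in pairs A, B and C.

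Groups that did not overlap with hypoxia higher were found for 2 of the 8 members, both chromosome 1 passengers, beside 46 of 619 tested miRNAs (7.43%). With hypoxia lower there were 0 members, beside 34 tested miRNAs (5.49%). A higher level in hypoxia within all 3 letters was found for 3 of 4 listed passengers and 0 of 4 guides. The same was found for 124 of 619 tested miRNAs (20.0%). The unlisted passenger miR-181b-2-3p was lower in hypoxia in pairs A (-1.47) and B (-0.04) and higher in pair C (1.48).

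From chromosome 2, miR-181a-2-3p stood at 91.6, 51.6 and 57.9 CPM in control A, B and C. The hypoxia libraries A, B and C stood at 78.9, 57.8 and 63.9 CPM. Library A was the highest in each group, and the groups overlapped. The log2 fold change was 0.00 (SE 0.26, edgeR adjusted p = 1.0), with -0.21, 0.16 and 0.14 in pairs A, B and C. The other passenger of that locus, miR-181b-2-3p, was rare, with 35, 18 and 9 reads in control and 17, 22 and 22 in hypoxia, and a change of -0.25 on the log2 scale (SE 0.56, edgeR adjusted p = 0.99).

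From chromosome 8, miR-181c-3p stood at 20.5, 18.4 and 23.5 CPM in control A, B and C. The hypoxia libraries A, B and C stood at 25.8, 21.0 and 26.6 CPM. Hypoxia B lay inside the control range, and the log2 fold change was 0.24 (SE 0.20, edgeR adjusted p = 0.92), with 0.34, 0.19 and 0.18 in pairs A, B and C. miR-181d-3p had from 2 to 9 reads per library and did not pass the expression filter.

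With the letter as a block, edgeR gave miR-181a-1-3p a log2 fold change of 0.48 (SE 0.12) and miR-181b-1-3p one of 1.10 (SE 0.26), each with an adjusted p of 0.06, so neither was called, while 14 of 619 tested miRNAs were (2.26%). At an unadjusted p under 0.05 that fit had 3 members (the same 2 and miR-181c-5p), against 132 of all tested miRNAs (21.3%). DESeq2 with the block called miR-181a-1-3p (log2 fold change 0.47, adjusted p = 0.012), 1 of 36 calls among the 307 miRNAs to which it gave an adjusted p (11.7%). It gave none to miR-181b-1-3p. The blocked edgeR fit scaled to library size only, added after the data were seen, called miR-181a-1-3p and miR-181b-1-3p (adjusted p = 0.017 and 0.014), 2 of the 55 calls among all tested miRNAs (8.89%). In that fit the median log2 fold change over all tested miRNAs was 0.08, beside 0.01 in the blocked fit with TMM scaling. The blocked edgeR adjusted p of miR-181a-1-3p with a pair left out was 0.10 (A), 0.13 (B) and 0.47 (C).

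**Figure D3:**
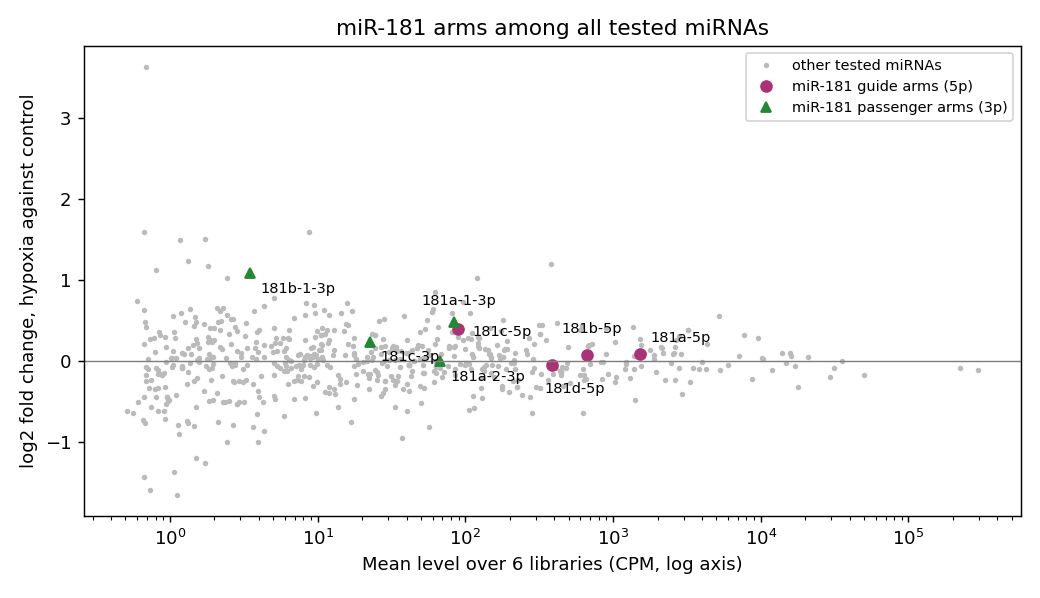
Log2 fold change of all tested miRNAs against mean level in CPM (log axis), with miR-181 guides as circles and passengers as triangles. The guides other than miR-181c-5p lie within 0.08 of zero, while miR-181b-1-3p stands at 1.09 at a mean of 3.48 CPM.

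Counting within the miR-181a passengers compares the passenger reads of the loci inside each library, with no scaling between libraries. Of the 2125, 1526 and 1920 miR-181a passenger reads in control A, B and C, 46.8%, 56.0% and 52.7% were miR-181a-1-3p. Of the 3202, 2374 and 2159 such reads in hypoxia A, B and C, 59.0%, 60.3% and 59.2% were. All hypoxia libraries lay above all control libraries, and the hypoxia libraries lay closer together. Exact 95% intervals were 53.4% to 58.5% in the highest control (B) and 57.3% to 60.7% in the lowest hypoxia library (A), and these intervals overlapped.

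The mean share of miR-181a passenger reads from chromosome 1 was 51.8% ± 4.65 in control against 59.5% ± 0.715 in hypoxia (SD, n = 3 each). The difference of 7.70 percentage points had a two-sided exact permutation p of 0.1, the smallest possible, and an adjusted p of 0.5 over the 5 library-level measures planned. Within pairs it was 12.2 (A), 4.36 (B) and 6.54 (C) (p = 0.25 by an exact sign-flip permutation test, its smallest value), and without control A, the library with the lowest share, it was 5.19.

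The miR-181b passengers, added after the data were seen, gave a less even picture from far fewer reads. miR-181b-1-3p held 49.3%, 50.0% and 81.6% of miR-181b passenger reads in control A, B and C (of 69, 36 and 49 reads). Under hypoxia the shares were 85.5%, 74.1% and 73.2% (of 117, 85 and 82 reads). Control C lay above hypoxia B and C. The difference of 17.3 percentage points had an exact permutation p of 0.3, and pair C went the other way (-8.46).

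**Figure D4:**
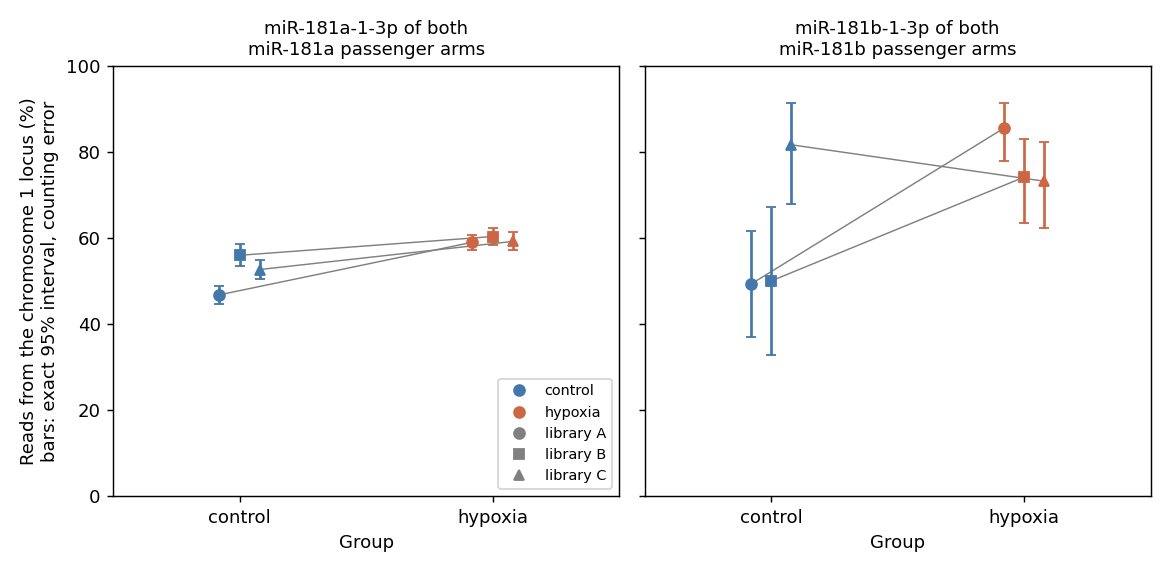
Percent of passenger reads that came from the chromosome 1 locus, for miR-181a (left) and miR-181b (right), by library, with exact 95% binomial bars for counting error and grey lines joining same-lettered libraries. The miR-181a share is between 46.8% and 56.0% in control and between 59.0% and 60.3% in hypoxia, and the miR-181b share overlaps between the groups.

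Guide reads per passenger read differed widely between the members miR-181a, miR-181b, miR-181c and miR-181d. The ratios of miR-181a and miR-181b each pool hairpins from different loci. The ratio was 11.0 ± 1.71 in control and 9.60 ± 1.40 in hypoxia for miR-181a (both passengers summed), 183 ± 51.2 and 114 ± 9.33 for miR-181b, and 3.71 ± 0.731 and 4.21 ± 1.05 for miR-181c (SD, n = 3 each). For miR-181d it lay between 699 and 2546, resting on 9 or fewer passenger reads per library. The ranges over all 6 libraries did not overlap between these 4 ratios, which were lowest for miR-181c and highest for its neighbour miR-181d.

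On the log2 scale the miR-181a ratio was lower in hypoxia by -0.20 (3.45 ± 0.234 against 3.25 ± 0.215, SD, n = 3 each, two-sided exact permutation p = 0.4). It was lower in each pair, at -0.16 for A, -0.10 for B and -0.34 for C. With 1 library left out the difference moved most to -0.08 (without hypoxia A), -0.11 (without control C) and -0.33 (without control A). Taken against miR-181a-1-3p alone the difference was -0.40, with control at 4.28, 4.38 and 4.55 and hypoxia at 3.78, 4.18 and 4.05, and the groups did not overlap (p = 0.1, the smallest possible for this exact permutation test). Against miR-181a-2-3p alone it was 0.05 (exact permutation p = 0.8). The ratio to miR-181a-1-3p, the chromosome 1 share of miR-181a passenger reads and the level of miR-181a-1-3p all use the same miR-181a-1-3p reads. They are therefore not separate results.

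For miR-181b against its passengers summed, the log2 ratio was 6.96, 7.68 and 7.77 in control A, B and C. For the hypoxia libraries it was 6.72, 6.95 and 6.81. Hypoxia B lay just under control A, so the groups did not overlap (difference -0.65, exact permutation p = 0.1, the smallest possible), and this ratio was added after the data were seen. It uses the reads of miR-181b-1-3p and so is not a result separate from the level of that arm. For miR-181c the difference was 0.17 (1.87 ± 0.274 against 2.04 ± 0.347, SD, n = 3 each, exact permutation p = 0.6), with pair A at -0.43 and pairs B and C at 0.66 and 0.28.

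**Figure D5:**
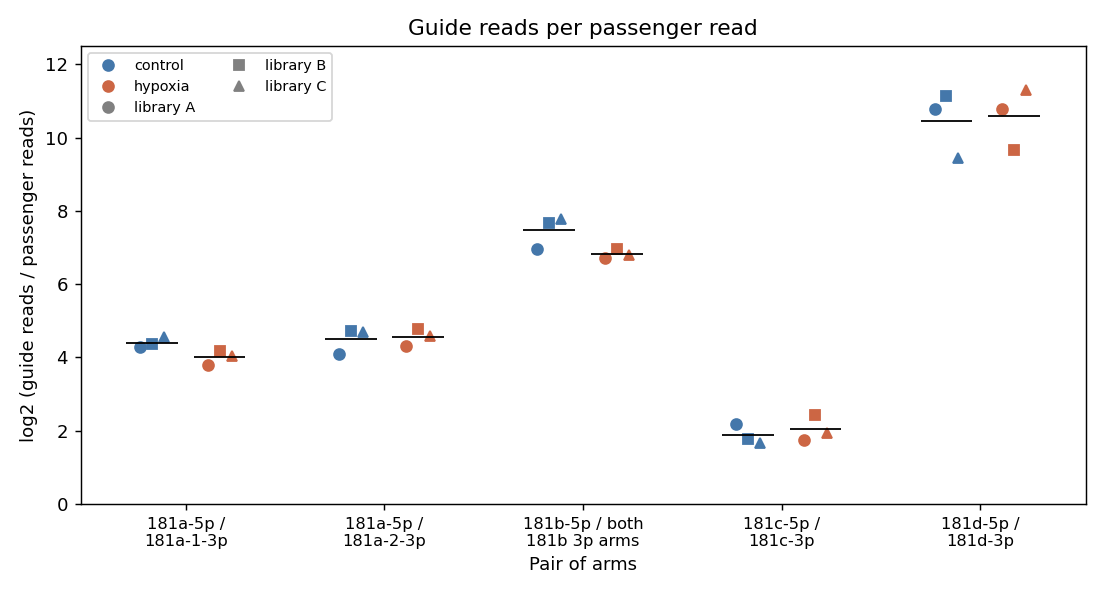
Log2 ratio of guide to passenger reads by library for 5 pairs of arms, control in blue and hypoxia in orange, black lines for group means (n = 3). The ratio of miR-181a-5p to miR-181a-1-3p and that of miR-181b-5p to its passengers lie lower in all hypoxia libraries, while the other 3 ratios overlap between the groups.

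The levels of miR-181a-5p over the 6 libraries, centred on their mean, were most like those of miR-335-3p (root mean square difference 0.056 on the log2 CPM scale), miR-125b-5p (0.060) and miR-106b-3p (0.068), out of 355 miRNAs outside the family with at least 10 CPM on average. The median over the 355 was 0.271. Within the family miR-181b-5p was nearest (0.074), and the passengers of miR-181a-5p, miR-181a-1-3p (0.245) and miR-181a-2-3p (0.248), lay slightly under that median. These are descriptions of small variation, since miR-181a-5p itself varied little.

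Other miRNAs linked to the settings in which miR-181 is studied were read from fixed lists. Of 8 vascular inflammation miRNAs, all tested, edgeR called 0 without the block (0 at an unadjusted p under 0.05) and 0 with it, and 1 had a positive log2 fold change (median -0.07). The most abundant was miR-126a-3p, an endothelial miRNA, at 228422 ± 12837 CPM in the controls against 214603 ± 21184 under hypoxia (SD, n = 3 each), with a log2 fold change of -0.09 (SE 0.12). Of 7 lymphoid miRNAs, 0 were called in either fit (0 at an unadjusted p under 0.05) and 4 were positive (median 0.03). The most abundant of these, miR-146a-5p, a feedback inhibitor of NF-kappaB signalling, had a log2 fold change of -0.24 (SE 0.21).

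Of 6 mitochondria-linked miRNAs, 0 were called without the block, 1 was at an unadjusted p under 0.05 and 1 was called higher with the block. That one, miR-210-3p, a target of the hypoxia-inducible factors, had a blocked log2 fold change of 1.19 (edgeR adjusted p = 0.024) and was named after its value was seen. The most abundant of the list, let-7b-5p, stood at 4382 ± 189 CPM in the controls against 4069 ± 261 under hypoxia (SD, n = 3 each), with a log2 fold change of -0.11 (SE 0.13).

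Cell type markers beside the chromosome 1 passengers were as follows. Of 6 cardiomyocyte markers 4 were tested and all 4 were positive (median 0.54), their summed level running from 77.2 to 172 CPM in control and from 104 to 176 in hypoxia. The 2 endothelial arms summed to between 227197 and 249641 CPM in control and between 200661 and 238099 in hypoxia. They differed in direction, with a log2 fold change of -0.09 for miR-126a-3p and 0.28 for the rarer miR-126a-5p. The 5 fibroblast and smooth muscle markers, 3 of them positive, summed to between 26072 and 57420 CPM in control and between 26572 and 50347 in hypoxia. Of 7 blood cell markers 5 were tested and 3 were positive, with sums from 49.4 to 55.0 CPM in control and from 42.6 to 56.8 in hypoxia. In edgeR without the block 0 of these markers were called (1 at an unadjusted p under 0.05, a cardiomyocyte marker). The part of the cell mixture in the passenger differences was not tested.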

How the data were processed

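Small RNA was measured in 6 libraries, 3 control and 3 hypoxia. The authors deposited unscaled counts of reads, 1 column per library, for 1978 known and 838 predicted miRNAs. Per the submitters' processing notes, bcl2fastq 2.0, DESeq2 and the build mm10 were used, in roles the notes leave out. Aligner, counting program and handling of reads that fit several miRNAs: not given in the sources used here. The members, lists and tests were chosen with earlier results of these data known.

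The whole known table was fitted in R 4.3.3 with edgeR 4.0.16: filterByExpr, TMM scaling, the quasi-likelihood test and Benjamini-Hochberg adjustment over all tested miRNAs at 0.05. SE is the absolute log2 fold change over the square root of F. Alternatives used DESeq2 1.42.0, limma 3.58.1 voom, other scalings and filters, and each library left out. Only the edgeR fit without the block was tested on simulated data, with changes larger than those of any member. The blocked, DESeq2 and voom fits were not simulated. Log2 CPM used a prior count of 2. Library-level shares and log2 ratios used exact permutation tests (scipy 1.17.1), and shares have Clopper-Pearson 95% intervals. A count of 0 allows up to 0.243 CPM (3 counts) in the shallowest library.

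Column letters match no replicate number of the titles. Deviations of log2 CPM from group means correlated at 0.52 (A), 0.43 (B) and 0.28 (C) within letters, and from -0.44 to 0.12 between letters. Every same-letter value being over 0.1, the letters were taken to pair the libraries, from column names and values, not labels. Control C with hypoxia B, at 0.12, also passed that limit, so the limit alone does not separate pairs. Deviations within a group sum to 0, so these correlations depend on each other. The pairing, and the fits with the block, therefore rest on an assumption. Named with values were all members, the other miR-181 arms, the 3 miRNAs nearest to miR-181a-5p in pattern, and the most abundant miRNA of each list. Sequences and coordinates are from RefSeq and GENCODE M21 on GRCm38, the assembly of mm10.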

Additional observations from a re-analysis of the deposited data

How the results depend on the processing

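No member was called by edgeR in any alternative without the letter as a replicate block. With the block the number called was 0 in edgeR, 1 in DESeq2 (miR-181a-1-3p) and 2 in edgeR scaled to library size only (with miR-181b-1-3p). The log2 fold changes of miR-181a-1-3p (0.36 to 0.57), miR-181b-1-3p (0.82 to 1.27), miR-181c-5p (0.16 to 0.65) and miR-181c-3p (0.13 to 0.32) stayed above 0 in every alternative that gave an adjusted p. Those near 0 changed sign: miR-181a-5p was -0.02 with the block without pair B, miR-181b-5p ran from -0.03 to 0.11 with 1 library left out, and miR-181d-5p was 0.01 with library size only and 0.02 when that scaling was joined with the block. In both fits with library size only, the median over all tested miRNAs was 0.08. miR-181a-2-3p, at 0.00 with no direction, ran from -0.18 to 0.26. The difference, hypoxia minus control, in the miR-181a log2 ratio of guide to passenger was 0.048 against miR-181a-2-3p alone. The difference in the miR-181c log2 ratio ran from -0.0216 to 0.326 with 1 library left out. For the miR-181a share of guide reads, the difference was -0.62 percentage points without miR-181d-5p. It ran from -0.569 to 1.14 percentage points with 1 library left out. The difference in the chromosome 1 share of passenger reads was positive in 9 of 9 alternatives. With 1 library left out it ran from 5.19 to 9.79 percentage points. Its sign was fixed there, because the miR-181a groups did not overlap. The sign-flip test used the same difference as the main test. The highest value, 17.3, was for the miR-181b passengers in place of miR-181a, and their groups overlapped. The cause was not tested for these changes. With 2 libraries in a group the smallest exact permutation p is 0.2. The 10 CPM filter removed miR-181b-1-3p, whose 18 to 100 reads per library limit its precision.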
